A study of Mus musculus with 8 samples.

Results

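Cish and Socs1 to Socs7 are the 8 genes of the suppressor of cytokine signalling family. They were taken by symbol from the expression tables, and all 8 were found among the 20207 genes listed in each library. RNA had been sequenced from bone marrow of mice with a tetracycline-inducible form of chronic myelogenous leukaemia (CML) and of normal mice, in 8 libraries. CML-affected mice carried Tal1-tTA and TRE-BCR-ABL1, so that the BCR-ABL1 oncogene came on once doxycycline was withdrawn, in cells where the Tal1 element drives tTA (haematopoietic stem and progenitor cells). The study's text describes the normal mice as littermates carrying Tal1-tTA alone. Its methods give 5 weeks after withdrawal, an age of 8 to 12 weeks and an FVB/N background. The labels instead name C57BL/6. They give 2 months for 3 of the normal libraries, 6 months for the second LT-HSC library and no age for CML. The study also used healthy C57BL/6 mice for metabolite measurements, so these sources do not settle whether the normal libraries came from tTA-carrying mice. Long-term (LT) stem cells were CD150+CD48-CD135- cells of the c-Kit+Lin-Sca-1+ (KLS+) gate, short-term (ST) stem cells were CD150-CD48-CD135- cells of that gate, and KLS- progenitors were c-Kit+Lin-Sca-1-. LT-HSCs and LT-CML stem cells had 2 libraries each, and normal ST-HSCs, ST-CML stem cells, normal KLS- and CML-KLS- cells had 1 each. Nothing in the sources says how many mice went into a library, so the p-values below measure only the spread between these libraries.

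SOCS proteins are classic negative feedback inhibitors. A cytokine receptor activates Janus kinases (JAKs), these phosphorylate the receptor and signal transducers and activators of transcription (STATs), and the STATs then switch on SOCS genes whose products damp the same receptor. Each protein holds an SH2 domain, which binds phosphotyrosine, and a SOCS box, which recruits a ubiquitin ligase. In blood cells Cish and Socs2 are textbook targets of STAT5, the STAT that BCR-ABL1 is known to keep active, while Socs1 and Socs3 can also block JAK activity directly. The study's own list of genes raised in CML stem cells, made from these same libraries, contains Cish and Socs2, so their direction here is not independent evidence.

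A sequence feature found near the starts of Cish and Socs2 but not of the other members was a close pair of matches to the letters TTCNNNGAA, the palindromic core that STAT factors recognise, which reads the same on both strands. The pairs are shown because Cish and Socs2 are the members that differed most between CML and normal stem cells. Sequences are from mm9 (NCBI Build 37), the build of the expression tables, on the strand of the gene and 5′ to 3′, with the matching letters in capitals. The positions are chr9:107198988-107199011 for the first Cish pair, chr9:107199093-107199122 for the second, both on the plus strand, and chr10:94879536-94879559 on the minus strand for Socs2.
Cish, first pair: ttTTCCTGGAAagTTCTTGGAAat
Cish, second pair: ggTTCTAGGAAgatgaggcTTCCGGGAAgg
Socs2, pair: gaTTCCTGGAAagTTCCTGGAAag

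In the GENCODE M1 annotation the first Cish pair ended 32 bases before the start of the nearest transcript downstream, and 5 of the 6 annotated Cish transcripts began downstream of it. For the remaining transcript it lay in the 5′ untranslated region. The second pair was upstream of 4 of the 6 transcripts, the nearest starting 91 bases further on, and within the 5′ untranslated region of the other 2. The Socs2 pair ended 47 bases before the nearest transcript start, upstream of 14 of the 15 annotated transcripts and in no annotated exon. The windows searched ran from 500 bases before to 100 bases after every annotated start, and sites counted as a pair when their first bases were 9 to 20 bases apart. At least 1 match was found in 30.9% of 11981 expressed genes, a close pair in 25 genes (0.209%), and 2 close pairs in 2 genes, Cish and Spata13. Spata13 was named after its value was seen, and the windows were set with the Cish and Socs2 sites already known. Within the family Socs1 had a single match (TTCCAAGAA, chr16:10786074-10786082) and Socs3 had 2 separate ones (TTCCAGGAA, chr11:117830553-117830561, and TTCTTAGAA, chr11:117830826-117830834). None was found in the windows of Socs4, Socs5, Socs6 and Socs7, which says only that these letters were not there. Genes with more annotated starts had more bases searched (2002 for Cish and 4530 for Socs2 against a median of 1200). With windows of equal length (300 bases, RefSeq, GRCm38.p6; 4 of the 8 members had one) 8.30% of 32851 windows held the motif and 0.0457% a close pair, and the Cish window held 1 close pair. Socs2 had no such window, so its pair was compared only over windows of unequal total length. A match describes the letters and does not show that a factor bound them.

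Levels are given as RPKM, reads divided by transcript length and by the size of the library, a per-length scale on which genes can be compared. The libraries held an estimated 17.8 to 23.9 M reads. Replicates of LT-HSCs correlated across genes with r = 0.981 and those of LT-CML with r = 0.982. The stem cell markers Procr, Mecom, Hlf, Fgd5 and Ly6a were lower in KLS- than in stem libraries, and Slamf1, which encodes CD150, was at 10.7 to 35.5 RPKM in LT and 0.955 to 2.87 RPKM in other libraries. Genes used here as markers of more mature cells were also read in stem libraries, which does not show which cells held the transcripts. The summed level of the 8 neutrophil and monocyte markers measured ran from 259 to 2923 RPKM in normal stem libraries, highest in the 6-month LT-HSC library, and from 234 to 2511 RPKM in CML stem libraries, highest in the second LT-CML library. Mpo, a granule enzyme of myeloid progenitors, was at 1291 RPKM in the second LT-CML library and 5.20 RPKM in the first. The summed level of the 7 erythroid markers was 28.6 to 106 and 39.0 to 100 RPKM in the same groups, with Hba-a1 listed at 0 in every library, that of the 5 basophil and mast cell markers 5.67 to 15.2 and 6.07 to 26.0 RPKM, that of the 5 megakaryocyte markers 33.2 to 413 and 45.8 to 476 RPKM, high in LT libraries of both, and that of the 6 lymphoid markers 0.932 to 5.15 and 0.479 to 9.72 RPKM. These ranges overlapped between normal and CML. The part of more mature cells, if present, in the results was not tested.

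Cish was the most abundant member in 5 of the 6 stem libraries and second to Socs3 in ST-HSCs, and in KLS- cells it came after Socs6 and Socs7 in CML and above only Socs2 and Socs1 in normal marrow. The family summed to 34.5 to 35.4 RPKM in the 3 normal stem libraries, 45.7 to 63.6 RPKM in the 3 CML stem libraries, and 13.1 and 15.8 RPKM in normal and CML-KLS- cells. Cish made up 23.9 to 37.1% of that sum in normal stem libraries and 38.0 to 45.5% in CML stem libraries. Socs2 made up 6.60 to 18.7% in the former and 17.7 to 19.7% in the latter. In KLS- cells the order was different, with Socs6 (37.9% in normal, 41.6% in CML) and Socs7 (26.4% and 20.5%) in front and Cish at 4.90% and 11.7%. In each stem library 7 members passed 1 RPKM, while Socs1 stayed below 0.31 RPKM in all 8 libraries.

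**Figure D1:**
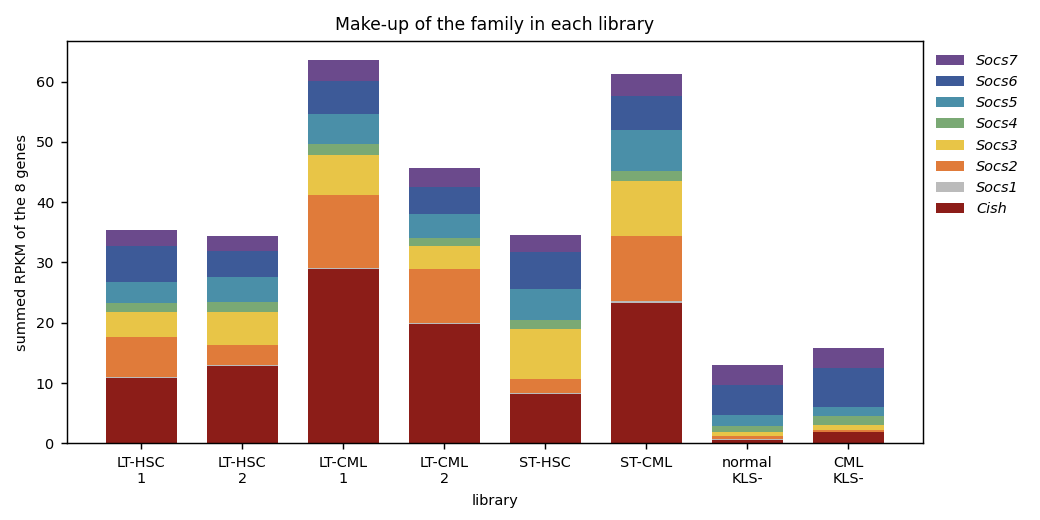
Summed RPKM of the 8 family members in each library (linear axis from 0), split by gene, with the libraries on the horizontal axis. The CML stem libraries sum to 45.7 to 63.6 RPKM against 34.5 to 35.4 RPKM in normal stem cells, the added height lies mostly in Cish and Socs2, and both KLS- bars are the lowest.

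The first question was which feedback inhibitors differed between CML stem cells and normal HSCs, with LT and ST libraries pooled (3 against 3). Cish encodes CIS, which occupies the receptor phosphotyrosines that STAT5 would otherwise dock on. Its level was 10.8 and 12.8 RPKM in the LT-HSC libraries, 8.25 RPKM in ST-HSCs, 28.9 and 19.8 RPKM in the LT-CML libraries and 23.3 RPKM in ST-CML stem cells. Every CML stem library was above every normal one, with the lowest CML value at 19.8 and the highest normal value at 12.8 RPKM. The means were 24.0 ± 4.62 (SD, n = 3) and 10.6 ± 2.27 (SD, n = 3) RPKM, a 2.26-fold ratio. On the log2(RPKM + 1) scale the difference was 1.11 (SE 0.20, 95% interval 0.64 to 1.58) with an adjusted p of 0.0366 from limma over 12561 genes. Behind these values stood about 335 to 659 reads in normal and 777 to 1293 in CML stem libraries. The call was near the threshold. It was lost when any 1 of the 6 libraries was left out (adjusted p = 0.0526 to 0.143, log2 difference 0.95 to 1.24) and without a minimum on expression (adjusted p = 0.0954), while the direction held in each.

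Socs2, best known as the brake on growth hormone receptor signalling, was the member with the largest fitted difference. It was at 6.63 and 3.25 RPKM in LT-HSCs, 2.28 RPKM in ST-HSCs, 12.1 and 9.01 RPKM in LT-CML and 10.8 RPKM in ST-CML stem cells. The lowest CML value, 9.01 RPKM, lay above the highest normal value of 6.63 RPKM, and the normal libraries were more spread than the CML ones. The means were 10.6 ± 1.55 and 4.05 ± 2.28 RPKM (SD, n = 3 each), a 2.62-fold ratio. The log2 difference was 1.29 (SE 0.30, 95% interval 0.58 to 1.99), larger than that of Cish but with a larger error, and it did not pass (adjusted p = 0.0914 from limma). With LT or ST identity as a covariate the adjusted p from limma was 0.0353 for Socs2 and 0.0137 for Cish. Without the first LT-HSC library, which held the highest normal Socs2 value, that of Socs2 was 0.0247. With any other stem library left out instead, Socs2 did not pass (adjusted p = 0.15 to 0.295 from limma). Reads behind Socs2 were about 70 to 216 in normal and 268 to 409 in CML stem libraries.

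The other 6 members did not pass this test. Socs7, whose product binds adaptor proteins of tyrosine kinase signalling, had narrow and separate groups, at 2.57 to 2.90 RPKM in normal and 3.18 to 3.53 RPKM in CML stem libraries. The size of that step was small, with a log2 difference of 0.25 (SE 0.13, 95% interval -0.06 to 0.56) and an adjusted p of 0.515 from limma. Socs3, which inhibits JAKs bound to gp130-type and G-CSF receptors, was at 4.06 to 8.30 RPKM in normal and 3.77 to 9.20 RPKM in CML stem libraries. These groups overlapped fully, with a log2 difference of 0.10 and a 95% interval of -0.65 to 0.85. Socs5 (log2 difference 0.22, interval -0.27 to 0.71), Socs4 (0.045, interval -0.26 to 0.35) and Socs6 (-0.033, interval -0.44 to 0.38) overlapped as well. Socs1, the strongest JAK inhibitor of the family, was at 0.175 to 0.288 RPKM in normal and 0.135 to 0.308 RPKM in CML stem libraries, about 3 to 7 reads each. At this depth a difference in Socs1 was not detectable.

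In all, 1 of the 8 members passed in the pooled comparison, where 2.34% of all genes tested passed, 1.18% higher and 1.16% lower in CML. The median log2 difference of the members was 0.16 beside -0.041 over all genes tested, with 6 of 8 above 0. The exact two-sided permutation test of 3 against 3 libraries gave p = 0.1 for Cish, Socs2 and Socs7, which is the smallest value this design allows, and 0.5 to 0.8 for the others.

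**Figure D2:**
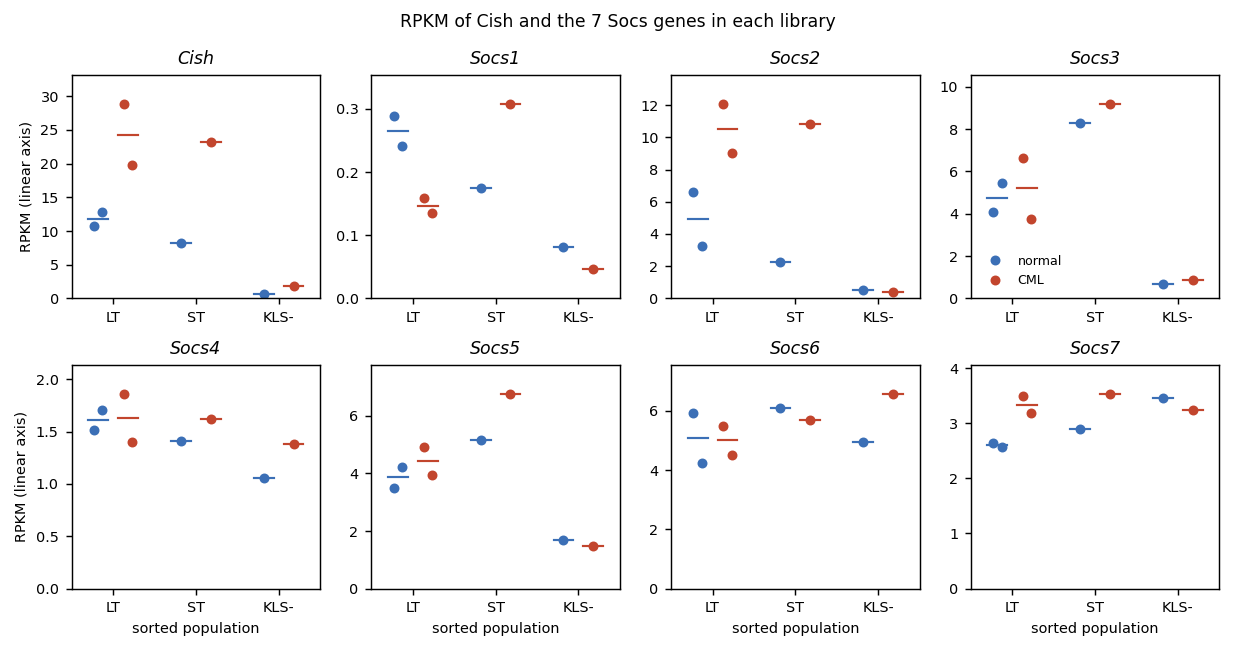
RPKM of each member (vertical, linear from 0, with its own range per gene) in LT, ST and KLS- cells. Points are libraries and bars are group means, blue for normal and red for CML, with 2 libraries in each LT group and 1 elsewhere. Cish and Socs2 are higher in every CML stem library than in any normal one, and Cish, Socs2, Socs3 and Socs5 drop in KLS- cells.

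Within LT cells alone (2 against 2 libraries, which are also part of the pooled comparison) Cish averaged 24.3 ± 6.47 RPKM in LT-CML and 11.8 ± 1.39 RPKM in LT-HSCs (SD, n = 2 each). Socs2 averaged 10.5 ± 2.18 and 4.94 ± 2.39 RPKM. The ratios were 2.06-fold and 2.14-fold, yet none of the 8 members passed the LT test (adjusted p = 0.119 for Cish and 0.222 for Socs2, from limma). Of all genes 1.73% passed, 0.939% higher and 0.788% lower in LT-CML. At an unadjusted p under 0.05 there were 2 of the 8 members, beside 1452 of all 12561 genes tested. The 2-month LT-HSC library held 2.04 times the Socs2 of the 6-month library, whereas Cish differed between them by 0.846-fold. Age and library cannot be told apart there. In ST cells, with 1 library a side and therefore no test, CML over normal was 2.82-fold for Cish and 4.74-fold for Socs2.

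The order of the 6 populations by mean Cish was LT-CML, ST-CML, LT-HSC, ST-HSC, CML-KLS- and normal KLS-. LT-CML and ST-CML did not differ beyond the spread of the LT-CML libraries (19.8 and 28.9 RPKM around 23.3 RPKM). The single ST-HSC value, 8.25 RPKM, lay below both LT-HSC values, though ST against LT did not pass in the test that took disease state into account (log2 difference -0.25, interval -0.70 to 0.20, adjusted p = 0.547 from limma). For Socs2 the leading pair was reversed, ST-CML at 10.8 RPKM and LT-CML at a mean of 10.5 RPKM, again within the spread of LT-CML.

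The second question was how the members differed between stem cells and the more committed KLS- progenitors. Cish, Socs2, Socs3 and Socs5 were lower in KLS- cells, and Socs1, Socs4, Socs6 and Socs7 did not pass. Cish and Socs2 had been selected by the study's list for being lower in CML-KLS- cells than in LT-CML stem cells. Of all genes tested 37.6% passed, 20.5% lower and 17.1% higher in KLS- cells, so that change was common in this comparison. Cish was at 0.640 RPKM in normal and 1.84 RPKM in CML-KLS- cells, against 8.25 to 28.9 RPKM in stem libraries. Stem cells thus held 16.6-fold more in normal and 13.0-fold more in CML marrow, and the log2 difference was -2.96 (SE 0.21, adjusted p = 0.000213 from limma). Each KLS- group had 1 library, so here and for the members below the error comes from the stem libraries alone, and the spread of KLS- cells was not measured. In a bulk library fewer expressing cells and less RNA per cell cannot be told apart.

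Socs2 was at 0.514 and 0.378 RPKM in normal and CML-KLS- cells, about 17 and 11 reads, against 2.28 to 12.1 RPKM in stem libraries. Its log2 difference was -2.36 (SE 0.30, adjusted p = 0.00167 from limma). Socs3 was at 0.686 and 0.846 RPKM in KLS- cells against 3.77 to 9.20 RPKM in stem cells, 8.65-fold lower in normal and 7.73-fold lower in CML marrow (log2 difference -1.98, SE 0.32, adjusted p = 0.00395 from limma). Both KLS- values lay far below every stem library for each of these genes. Socs5, a member linked to restraint of the epidermal growth factor receptor, was at 1.69 and 1.50 RPKM in KLS- cells and 3.49 to 6.77 RPKM in stem cells (log2 difference -1.13, SE 0.21, adjusted p = 0.00632 from limma). These 4 members were called under every alternative that gave an estimate.

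The remaining members were level or too low to judge. Socs6, whose product binds activated c-Kit, was at 4.95 and 6.58 RPKM in KLS- cells within or just above the stem range of 4.24 to 6.08 RPKM (log2 difference 0.096, interval -0.31 to 0.51). Socs7 was at 3.46 and 3.25 RPKM inside its stem range of 2.57 to 3.53 RPKM (log2 difference 0.11, interval -0.20 to 0.42). Socs6 and Socs7 varied by only 1.55-fold and 1.38-fold between their lowest and highest library, compared with 45.2-fold for Cish and 32.0-fold for Socs2. Under upper-quartile scaling the signs of Socs6 (-0.098) and Socs7 (-0.068) turned, and the median of all genes moved from -0.076 to -0.21. Socs4 was at 1.05 and 1.38 RPKM in KLS- and 1.40 to 1.86 RPKM in stem cells (log2 difference -0.22, interval -0.53 to 0.08). Socs1, at about 2 and 1 reads in KLS- cells, was not measurable there.

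**Figure D3:**
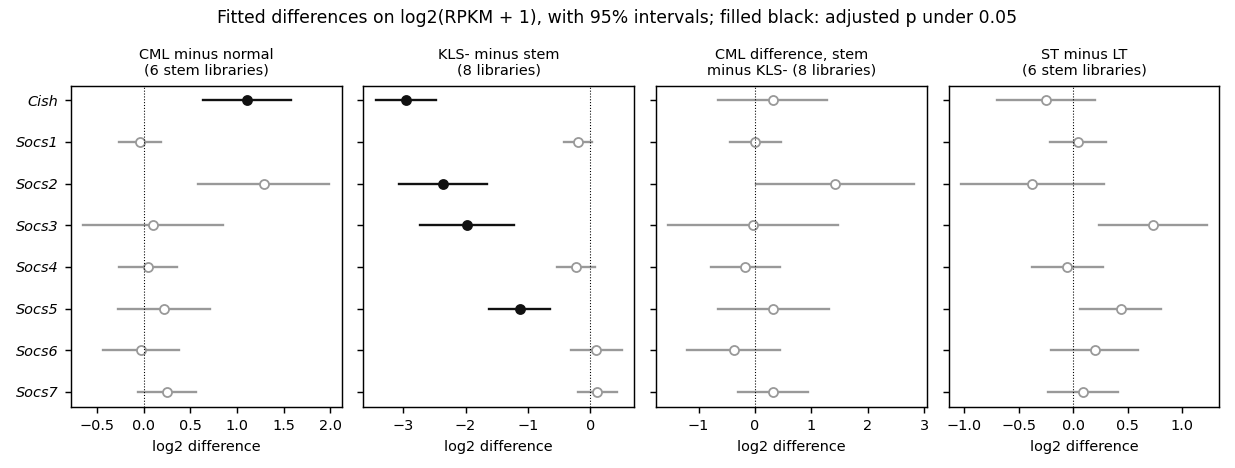
Fitted log2 differences of the 8 members (horizontal, log2(RPKM + 1) scale) in 4 comparisons, with 95% intervals as lines and genes in rows. Filled black points passed an adjusted p of 0.05 in limma: Cish for CML against normal stem cells (1.11), and Cish, Socs2, Socs3 and Socs5 for KLS- against stem cells (-2.96 to -1.13). Open grey points did not pass.

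Whether the CML difference was itself different in progenitors was tested as an interaction, with 1 KLS- library a side and their spread taken from the stem libraries. In KLS- cells Cish was at about 28 reads in normal and 71 in CML, and the 95% counting intervals of the 2 libraries, 0.425 to 0.925 and 1.44 to 2.33 RPKM, did not overlap. This compares those libraries and not the conditions. The CML over normal ratio of Cish was 2.88-fold in KLS- cells, beside 2.06-fold in LT and 2.82-fold in ST cells, and the interaction was 0.31 (interval -0.65 to 1.27, adjusted p = 1 from limma). It is signed as stem minus KLS-, so its sign is opposite to the order of these ratios. With a pseudocount of 0.1 RPKM in place of 1 it turned negative. Socs2, unlike Cish, was lower in CML among KLS- cells, with a ratio of 0.736, where the counting intervals overlapped (0.299 to 0.822 and 0.189 to 0.676 RPKM). Its interaction was 1.42 (SE 0.61, interval 0.015 to 2.83), with an unadjusted p of 0.0482 and an adjusted p of 1 from limma. No member passed, beside 0.00796% of all genes, which was the single gene Mst1r, which encodes the receptor kinase RON. At an unadjusted p under 0.05 there were 324 genes, Socs2 among them. Socs2 is on the study's list and so was selected on part of this contrast.

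Between ST and LT stem cells no member passed in limma, where 4.08% of all genes did, 1.81% higher and 2.28% lower in ST cells. At an unadjusted p under 0.05 there were 2 members, beside 2301 of all 12561 genes tested. Socs3 was the member with the largest difference, at 4.06 and 5.45 RPKM in LT-HSCs, 6.65 and 3.77 RPKM in LT-CML, and 8.30 and 9.20 RPKM in the normal and CML ST libraries. Both ST values lay above all 4 LT values (log2 difference 0.73, interval 0.23 to 1.23, adjusted p = 0.121 from limma). Socs5 was similar in order, at 3.49 to 4.91 RPKM in LT and 5.17 and 6.77 RPKM in ST libraries (log2 difference 0.43, interval 0.06 to 0.80, adjusted p = 0.202 from limma). With both second LT libraries left out, an alternative added after the data were seen, Socs3 passed (adjusted p = 0.0427 from limma). Calls among all genes also rose in that setting, by the counts given in the closing section, so the rise was not particular to Socs3.

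Patterns over the 8 libraries are a description only, since every point shares a library and the stem against KLS- step dominates. On log2(RPKM + 1), Cish and Socs2 correlated with r = 0.948 over 8 libraries and 0.893 over the 6 stem libraries. Over those stem libraries Socs7 also correlated with Cish (r = 0.826) and Socs2 (r = 0.756). Over 8 libraries it did not (r = -0.074 and 0.066). In the stem libraries Cish, Socs2 and Socs7 were each separate between CML and normal, so their r values there share that step. Cish and Socs2 had also been selected for it by the study's list. Socs3 and Socs5 correlated with r = 0.984 and 0.926. By contrast, Cish and Socs3 had r = 0.866 over 8 libraries and 0.099 over the stem libraries. Among 10033 genes with a mean of at least 1 RPKM, those most like Cish were Susd3 (r = 0.995), E130311K13Rik, Efha2, Ubl7 and Slc30a4 (r = 0.983). Those most like Socs2 were F2r, the thrombin receptor PAR1 (r = 0.995), Gnb4, 9530048O09Rik, Perp and the glucose transporter gene Slc2a1 (r = 0.969). Those most like Socs3 were Gstm7 (r = 0.996), Plcg1, Capsl, Sepp1 and Klhl24 (r = 0.990). For Socs1, at 1 to 7 reads, Mff led (r = 0.960), followed by Mboat7, Afmid, Pygm and Fam26f (r = 0.920).

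The rest of the JAK-STAT pathway was read from fixed lists of genes. Of 11 other STAT5 target genes, 1 was higher in CML stem cells and none was lower, with a list median of 0.090. That gene was Pim2, a survival kinase, at 8.13 and 7.20 RPKM in LT-HSCs, 10.8 RPKM in ST-HSCs, 24.3 and 23.2 RPKM in LT-CML and 20.3 RPKM in ST-CML. Its groups were apart like those of Cish (log2 difference 1.29, SE 0.17, adjusted p = 0.0109 from limma). No other target on the list passed, and at the low end Mcl1, an anti-apoptotic gene, was at -0.69 (adjusted p = 0.135 from limma). At an unadjusted p under 0.05 there were 3 of 11, Pim2, Mcl1 and Bcl6 (-0.60), beside 1573 of all genes tested. The list was not split by the direction in which STAT5 acts on each gene.

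Of 21 cytokine receptor genes tested, 1 was higher in CML stem cells and none was lower (list median 0.012). Csf2rb2, the mouse-specific β chain of the IL-3 receptor, was at 0.987 to 2.07 RPKM in normal and 3.28 to 4.11 RPKM in CML stem libraries (log2 difference 0.96, SE 0.19, adjusted p = 0.0484 from limma). Like that of Cish, this call was near the threshold. At an unadjusted p under 0.05 there were 4 of the 21, in both directions, beside 1573 of all genes tested. In the LT test 3 receptor genes were higher, beside 0.939% of all genes tested. The calls of that test over all genes fell from 217 to 6 to 74 with 1 library left out and to 0 without a minimum. The receptor genes were Flt3 (log2 difference 1.95), the common β chain gene Csf2rb (1.55) and Csf2rb2 (1.12), and Pim2 (1.52) passed there too. Flt3 encodes CD135, a marker that the LT gate excluded. It was at 3.95 and 2.52 RPKM in LT-HSCs and 11.9 and 19.2 RPKM in LT-CML. Csf2rb and Csf2rb2 are near-identical copies, so reads may have been split between them.

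None of the 11 JAK and STAT genes, 12 other negative regulators and 6 SOCS box partners passed in the pooled comparison in limma. At an unadjusted p under 0.05 there were 1, 1 and 0, beside 1573 of all genes tested. Among JAKs and STATs the highest log2 difference was that of Jak3 (0.24), with 3 of the 11 above 0 and 8 below (list median -0.11). Among other inhibitors the log2 difference ran from Usp18, which damps interferon receptors (-1.28), to Pias3 (0.22). The ligase partners through which SOCS proteins act ran from Tceb1, which encodes elongin C (-0.27), to Rbx1 (-0.040), with all 6 below 0.

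**Figure D4:**
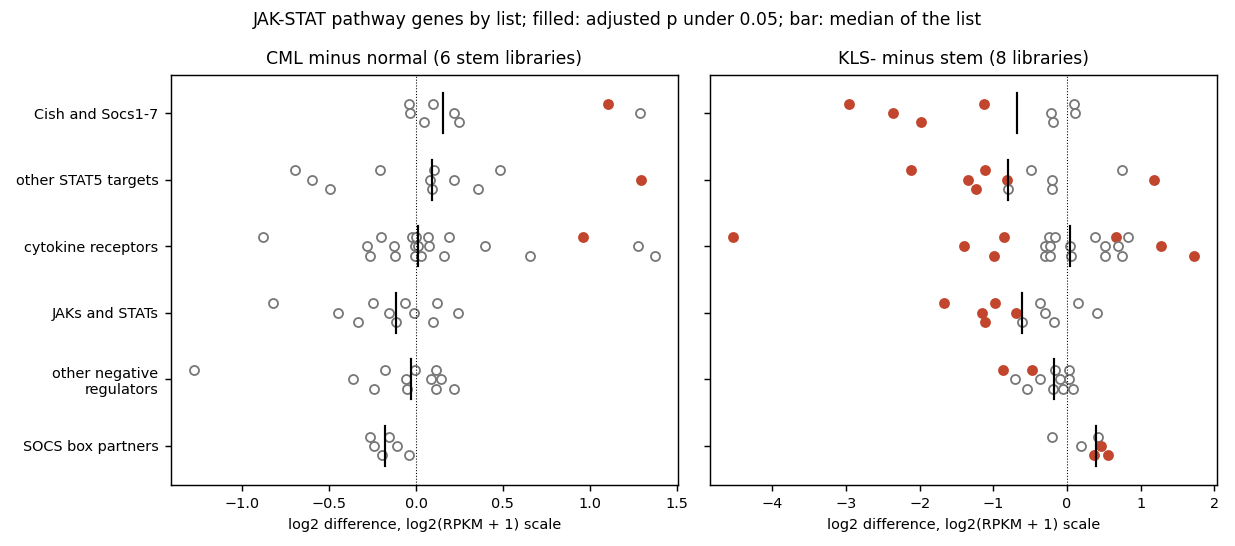
Log2 differences of JAK-STAT pathway genes by list (rows), for CML against normal stem cells on the left and KLS- against stem cells on the right. Each point is a gene, filled red where the adjusted p was under 0.05, and black bars are list medians. Cish, Pim2 and Csf2rb2 are the filled points on the left, and on the right filled points of the family, the STAT5 targets and the JAKs and STATs lie mostly below 0.

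In KLS- cells 5 of the 11 JAK and STAT genes were lower and none was higher (list median -0.61 beside -0.076 for all genes). These counts, and those of the lists that follow, stand beside 20.5% lower and 17.1% higher among all genes tested, so calls of this kind were common. The largest differences were Stat4 (-1.68), Jak3 (-1.16), Jak1 (-1.12) and Stat3 (-0.97), the last being the main STAT that acts on Socs3. Of the STAT5 targets 5 were lower and 1 was higher (median -0.81), led by Pim2 (-2.12), Pim1 (-1.35) and Mcl1 (-1.23), while Osm was higher (1.17). Receptors were mixed, with 4 lower and 3 higher (median 0.045). Il2rg was lower (-1.39), and Ifngr1 (1.72) and Csf2rb (1.27) were higher. The 3 SOCS box partners that passed were higher, Tceb2 by 0.55, Rbx1 by 0.47 and Tceb1 by 0.37, opposite in sign to the 4 members that passed. The call of Tceb1 was near the threshold (adjusted p = 0.0467 from limma). Over all genes, calls of higher genes fell from 2147 to 1453 with upper-quartile scaling, and these partners were not examined under it. Of the other negative regulators 2 were lower, Ptprc, which encodes the phosphatase CD45 (-0.87), and Pias2 (-0.47). The neutrophil and monocyte markers summed to 9502 and 15527 RPKM and the erythroid markers to 864 and 1872 RPKM in the KLS- libraries, and their part in these differences was not tested.

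Between ST and LT cells 4 receptor genes were higher in ST cells and 1 was lower, with no call in the other pathway lists (limma), beside 1.81% higher and 2.28% lower among all genes tested. At an unadjusted p under 0.05 there were 9 receptor genes and 9 genes of the other 4 lists, beside 2301 of all 12561 genes. Flt3 (log2 difference 3.04), the G-CSF receptor gene Csf3r (1.51) and Csf2rb (1.02) were among those higher, and Epor, the erythropoietin receptor gene, was lower (-1.19). Csf3r was at 13.3 to 19.0 RPKM in LT and 39.0 and 50.8 RPKM in ST libraries. Of the 21 receptor genes tested, 15 were above 0 and 6 below in this comparison. Socs3, which restrains the G-CSF receptor, was also above 0 but did not pass, and a link between them was not tested.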

How the data were processed

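RNA of sorted mouse bone marrow cells was made into cDNA with an ultra-low-input, oligo-dT-primed kit, read as pairs of 100 bases and mapped to mm9 by a commercial service. The authors deposited RPKM per gene and library. Annotation and counting rule are not given in the sources used here, and RPKM is not a count, so no count test was run. Depth was estimated from whole-read steps in low values (87.2% of 4998 low genes within 0.05 reads) with GENCODE M1 exon lengths. Reads are approximate, the smallest whole-read solution was taken, and intervals cover counting error only. Larger solutions were also found for Socs1, Socs3, Socs4 and Socs5. The implied length was 2161 bases for Cish, 1634 for Socs2 and 4389 for Socs7. The nearest GENCODE transcripts had 2572, 2153 and 7015 bases, so the scale of these genes was uncertain. Socs4 and Socs6 were also off, while Socs1 and Socs5 were close.

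Groups were taken from the labels. limma 3.58.1 in R 4.3.3 (eBayes with intensity trend) was run on log2(RPKM + 1), a scale that understates changes of low genes, keeping the 12561 genes whose values summed to more than 1 RPKM. Genes were called at an adjusted p (Benjamini-Hochberg) under 0.05. The pooled comparison used 6 libraries. The LT comparison used the 8 libraries and 6 population means (2 residual degrees of freedom), and the KLS- comparison and the interaction used 4 groups. The ST comparison used the 6 stem libraries with disease state as a term. The steps were tested on simulated data. Members and lists were chosen with earlier results of these data known. The text names all members, up to 4 genes a list with the largest differences among those that passed, the ends of lists where none did, the 5 genes most like Cish, Socs1, Socs2 and Socs3, and markers. Elane and Ly6g were not analysed here. Some genes that the rule would name are not reported here. Alternatives covered pseudocount, minimum, scaling, trend, covariates and left-out libraries. Python 3.11 with scipy was used for the rest.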

Additional observations from a re-analysis of the deposited data

How the results depend on the processing

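No paired analysis was possible because only the LT-CML libraries carry replicate numbers in their labels. Of 531 values recomputed, 490 kept direction and side of the threshold, 30 turned sign, 8 were no longer called and 3 became called. In the pooled comparison 294 genes passed, against 193 without a minimum, 543 with an LT or ST covariate, 38 without both second LT libraries (added after the data were seen) and 115 to 217 with 1 library left out. The members called there were 0, 2, 0 and 0 to 1, respectively. With the second LT libraries out the adjusted p of Cish was 0.103 (log2 difference 1.37). In the LT comparison 217 genes became 0 without a minimum and 6 to 74 with 1 library left out. The single gene of the interaction became 0 with a pseudocount of 0.1, a mean of at least 1 RPKM, upper-quartile scaling, no intensity trend or both second LT libraries out, 10 without a minimum, 9 with an ST term, and 0 to 1 with 1 library out. Between ST and LT cells 513 genes became 0 without a minimum, 1213 (1 member) without the second LT libraries and 55 to 712 with 1 library out. In the KLS- comparison 2147 genes were higher and 2580 lower, against 1453 and 3388 with upper-quartile scaling and 1824 and 1739 with quantile normalization. Leaving out a KLS- library left no estimate.

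Each value that turned sign was small or had a wide interval, and none was called on either side. With upper-quartile scaling the log2 differences were 0.040 for Socs6 in the pooled comparison, -0.0095 for Socs4 in LT cells, -0.098 for Socs6 and -0.068 for Socs7 in KLS- cells, and 0.035 for the Socs3 interaction. With quantile normalization they were 0.00032 for Socs6 in LT cells, 0.085 for Socs4 in KLS- cells and 0.0056 for the Socs3 interaction. The Cish interaction was -0.22 with a pseudocount of 0.1. Without both second LT libraries they were 0.0013 for Socs1 in the pooled comparison, -0.017 for Socs6 in KLS- cells and 0.23 for the Socs3 interaction. With 1 library left out, the pooled difference ran from -0.15 to 0.39 for Socs3, -0.019 to 0.11 for Socs4 and -0.17 to 0.053 for Socs6. In LT cells it ran from -0.26 to 0.42 for Socs3, -0.12 to 0.13 for Socs4 and -0.21 to 0.19 for Socs6. The interaction ran from -0.058 to 0.045 for Socs1 and -0.28 to 0.26 for Socs3, and ST against LT from -0.11 to 0.19 for Socs1 and -0.80 to 0.044 for Socs2. The causes were not tested. Depth limited Socs1, at 1 to 7 reads, and Socs2 in KLS- cells, at 11 and 17 reads.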
